A study of Mus musculus with 24 samples.

Results

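The circadian clock genes examined here are the 10 core members Arntl, Clock, Per1, Per2, Per3, Cry1, Cry2, Nr1d1, Nr1d2 and Dbp, taken by symbol from the 25755 genes listed for RNA sequencing of sorted dermal papilla (DP) cells of the mouse hair follicle. Each symbol was listed 1 time. The DP is a mesenchymal cluster under the hair follicle epithelium that signals to hair stem cells, and its transcriptome was profiled at P20 (telogen, the resting phase that ends the first hair cycle), P24 (early anagen, the growth phase), P28 (mid anagen) and P60 (the telogen of the second cycle). At each age, 3 control libraries were compared with 3 libraries of Hdac1/Hdac2 double mutant mice (dM1/2), which gave 24 libraries in 8 groups. In dM1/2 mice, floxed alleles of Hdac1 and Hdac2, which encode histone deacetylases, are both homozygous and are deleted by Cor-cre, a Cre driven by the Corin locus, which is active in the DP. Controls share Cor-cre/+ and 1 or more floxed alleles of these genes, and the control genotypes include homozygous floxed Hdac1 and homozygous floxed Hdac2. Which of them a given control library has is not in the labels. In all groups DP cells were marked by a YFP reporter that Cor-cre switches on. The Corin-Cre line was kept on FVB and the other lines on C57BL/6J.

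In the circadian clock, the transcription factors Bmal1, the product of Arntl, and Clock bind as a pair to E-box sequences and switch on the Per and Cry genes, whose proteins return to the nucleus and inhibit the pair. The same pair switches on Nr1d1 and Nr1d2, which encode the nuclear receptors Rev-erb alpha and beta, and these repress Arntl, so that Arntl peaks at the opposite time of day from its targets. Dbp, a PAR bZIP factor that binds D-box sequences, is a direct target with one of the strongest daily rhythms in many tissues. The level of a clock gene with a daily rhythm therefore depends on the hour at which tissue is taken. Mice were kept under a light and dark cycle, skin was digested overnight in cold trypsin before sorting, and the hour of collection is not given in the sources used here. A difference between ages can thus not be told apart from a difference in the hour of collection.

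Facts of the whole series that touch the clock genes were these. Reads on genes numbered from 11635062 to 13369732 per library at P20, from 35469841 to 49331751 at P24, from 37171260 to 48331795 at P28 and from 8171944 to 9724000 at P60, and the lowest count of any member in any library was 17 reads. Deposited values are read counts divided by size factors, called normalized reads here, with size factors of 0.349 to 0.541 in telogen and 1.56 to 2.96 in anagen. Summed normalized reads were higher in all 12 telogen libraries than in 10 of the 12 anagen libraries, the exceptions being P28 controls 1 and 2. Hdac1, the targeted gene, was at 675, 668 and 668 normalized reads in the P24 controls and at 209, 188 and 116 in dM1/2. At P28 it was at 214, 529 and 105 in controls and at 190.2, 149 and 126 in dM1/2, so the library labelled control 3 lay below all the mutants. At P20 it was at 375, 511 and 505 against 216, 369.6 and 270.0, and at P60 at 506, 359.9 and 376 against 371, 347 and 318. The difference in Hdac1 passed the test at P24 (-2.01, SE 0.22, adjusted p = 0.00167) and at no other age, and that in Hdac2 at none, though reads outside a deleted exon check nothing. Xist was at 8113 to 26333 in all 12 telogen libraries and at 3.91 or less in all 12 anagen libraries, and Ddx3y was at 0 in the former and at 969 to 1738 in the latter. Telogen libraries were thus from females and anagen libraries from males, and telogen, sex and depth cannot be told apart. The 11 DP markers summed to 13272 to 44581 normalized reads per library in telogen and to 109113 to 358303 in anagen, all 11 being above 0 in every library, and the part of this in the clock values was not tested. The summed keratinocyte, melanocyte and immune markers reached at most 612.

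Per kilobase of exon, the order of the members in the P20 controls ran from Nr1d1 at 1785 ± 667 normalized reads per kb (mean ± SD, n = 3) through Per1 at 1145 ± 68.6, Nr1d2 at 727 ± 125, Dbp at 655 ± 102, Cry2 at 447 ± 95.3 and Per2 at 374 ± 126 to Cry1 at 198 ± 38.6, Per3 at 122 ± 10.7, Clock at 101 ± 27.1 and Arntl at 15.4 ± 1.77. Neighbours in this order whose means differed by less than the larger of their SDs were Nr1d1 and Per1, Nr1d2 and Dbp, Cry2 and Per2, and Per3 and Clock. In the P24 controls Nr1d1 (539 ± 192), Per1 (411 ± 59.9) and Nr1d2 (314 ± 83.9) led again and Arntl (30.8 ± 8.79) was again last. Cry2 (175 ± 36.3) came next. The 5 that followed, Dbp at 126 ± 48.0, Cry1 at 115 ± 28.4, Clock at 112 ± 25.6, Per3 at 108 ± 23.0 and Per2 at 107 ± 44.9 per kb, did not differ beyond their SD. Exon lengths were unions over the transcripts of GENCODE vM21 (GRCm38). On the same build the members lie at Per2 chr1:91415982-91459324, Cry2 chr2:92403646-92434043, Per3 chr4:151003652-151044665, Clock chr5:76209868-76304792, Dbp chr7:45705088-45710203, Arntl chr7:113207465-113314126, Cry1 chr10:85131700-85185064, Per1 chr11:69095217-69109960, Nr1d1 chr11:98767932-98775333 and Nr1d2 chr14:18204054-18239127. Exons on the opposite strand overlap Dbp (Sphk2, 539 bases), Cry2 (D930015M05Rik, 295 bases), Nr1d1 (Thra, 263 bases) and Arntl (Gm45355, 33 bases), and the strand setting of the counting is not given, so reads there cannot be assigned with certainty. Per3 lies within Camta1 on the same strand and shares no exon base with it.

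The promoters of the members differ in the clock elements they hold. The sequences below, of Per3, Cry1, Per1 and Arntl, were picked among members with a match, and other members with changes described here have none. RefSeq promoters (GRCm38.p6, 250 bases before the start) matched 9 of the 10 members, in 13 windows, and Per2 had none. The motifs searched, on both strands, were the E-box CACGTG (in 6.02% of all 32851 promoter windows of 250 bases), its variant CACGTT (3.85%), the D-box as TTATGTAA or TTACGTAA (0.931%), the Rev-erb element core TAGGTCA (2.23%) and the cAMP element TGACGTCA (1.55%), and capitals mark the matches. No motif contains another, the E-box, TTACGTAA and the cAMP element read the same on both strands, and on the strand printed the variant can appear as AACGTG. Per3, the member that differed between genotypes, has D-box letters starting 205 and 158 bases before its start. Windows with 2 or more matches were counted for the D-box alone (7 of all windows), so this count says nothing of a link with the genotype difference.
Per3 (chr4:151044666-151044915, minus strand): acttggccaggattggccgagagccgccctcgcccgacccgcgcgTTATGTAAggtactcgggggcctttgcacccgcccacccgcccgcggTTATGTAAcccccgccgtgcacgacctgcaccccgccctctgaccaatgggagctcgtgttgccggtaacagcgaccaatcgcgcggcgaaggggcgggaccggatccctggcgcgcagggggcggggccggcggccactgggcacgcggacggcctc
Cry1, which was raised in anagen dM1/2 libraries without passing the main test, has an E-box 60 bases and a variant 79 bases before its start.
Cry1 (chr10:85185055-85185304, minus strand): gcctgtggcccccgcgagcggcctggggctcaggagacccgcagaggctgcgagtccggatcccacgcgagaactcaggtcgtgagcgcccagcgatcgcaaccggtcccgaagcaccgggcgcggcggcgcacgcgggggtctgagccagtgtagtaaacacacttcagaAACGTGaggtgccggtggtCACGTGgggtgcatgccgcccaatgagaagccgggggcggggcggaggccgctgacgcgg
Per1, higher in telogen, has an E-box 166 bases before the first of its listed starts.
Per1 (chr11:69098699-69098948, plus strand): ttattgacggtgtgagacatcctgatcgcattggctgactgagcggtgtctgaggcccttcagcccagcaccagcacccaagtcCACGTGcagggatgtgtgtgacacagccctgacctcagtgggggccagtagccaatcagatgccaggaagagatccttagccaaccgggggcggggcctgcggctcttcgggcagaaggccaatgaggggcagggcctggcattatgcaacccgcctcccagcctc
Arntl, the member with the opposite direction, has no match in the 250 bases before either listed start. It has the Rev-erb core 31 bases past its second listed start, printed with 10 bases on each side. Of all windows extended past the start, 2.61% hold this core.
Arntl (chr7:113207531-113207557, plus strand): aggcagaaagTAGGTCAgggacggagg
Cry2 has the E-box variant 166 bases and Nr1d1 28 bases before the start, and the windows of Clock, Dbp and Nr1d2 hold none of these letters, which says nothing of sites elsewhere in these genes. A match describes letters and is not a measured binding site.

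To describe how the clock genes followed the hair cycle, the telogen ages (P20 and P60) were compared with the anagen ages (P24 and P28) within each genotype, on log2(normalized reads + 1), a contrast chosen after the values were seen. In controls, 9 of the 10 members passed the test (limma, Benjamini-Hochberg adjusted p under 0.05), against 45.6% of all genes called in either direction. Of these 8 were higher in telogen and Arntl was lower, and Clock did not pass. Dbp differed most, 5.05-fold higher, followed by Per2 at 3.9-fold and Per1 at 2.92-fold. In dM1/2, 8 members passed, against 62.1% of all genes, with 7 higher and Arntl lower, and Clock and Cry1 did not pass. The median difference over the 10 members was 1.40 in controls and 1.32 in dM1/2, where the median over all genes was -0.02 in both.

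**Figure D1:**
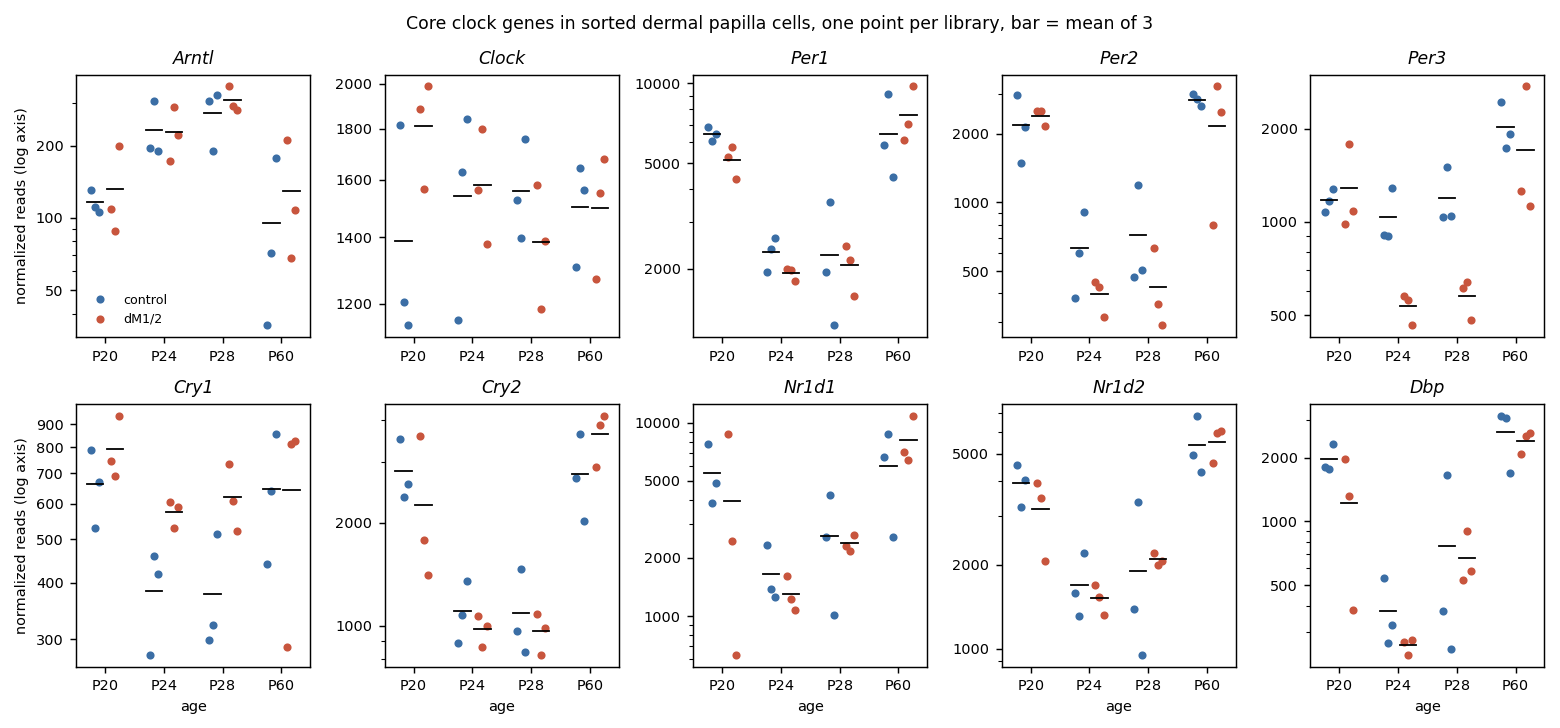
Normalized reads (log axis) of the 10 members by age, with 1 point per library, controls in blue, dM1/2 in red and bars at the mean of 3 libraries. Per1 and Cry2 lie higher in every P20 and P60 library than in every P24 and P28 library of the same genotype, and Arntl does the reverse in controls.

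Among the activators, Arntl in controls was at 131, 111 and 106 normalized reads at P20, at 196, 308 and 191 at P24, at 307, 189.6 and 326 at P28 and at 35.7, 71.5 and 178 at P60. All 6 telogen libraries thus lay below all 6 anagen libraries. In dM1/2 Arntl was at 109, 88.5 and 199.7 at P20, 173, 289 and 222 at P24, 353, 293 and 281 at P28 and 212, 67.9 and 108 at P60, with the highest libraries of P20 and P60 reaching into the anagen range. The log2 difference of telogen from anagen was -1.37 (SE 0.33, adjusted p = 0.006) in controls, 2.58-fold lower, and -1.12 (SE 0.27, adjusted p = 0.00347) in dM1/2. Clock, the partner of Arntl, was at 1142 to 1816 in telogen and 1156 to 1842 in anagen controls, ranges that overlap, with differences of -0.11 (SE 0.15, adjusted p = 0.581) in controls and 0.16 (SE 0.11, adjusted p = 0.235) in dM1/2.

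The Per genes encode the repressors whose levels rise and fall most with time of day. In controls Per1 ranged over 6 telogen libraries from 4452 to 9116 with a median of 6258 normalized reads and over 6 anagen libraries from 1225 to 3585 with a median of 2159.9. Telogen and anagen did not overlap, nor did they in dM1/2, where telogen libraries were at 4378 to 9741 and anagen libraries at 1582 to 2447. The differences were 1.54 (SE 0.24, adjusted p = 0.000554) in controls and 1.64 (SE 0.14, adjusted p = 1.06e-06) in dM1/2. Per2 in controls was at 2954, 1483 and 2134 at P20, 382, 598 and 906 at P24, 469, 1192 and 506 at P28 and 2985, 2843 and 2633 at P60. In dM1/2 it was at 2504, 2521 and 2153 at P20, 447, 428 and 316 at P24, 630.3, 359.5 and 289 at P28 and 795, 3221 and 2480.5 at P60. Telogen stood above anagen without overlap in both genotypes, although P60 dM1/2 library 1 held the lowest value of its group. The differences of Per2 were 1.96 (SE 0.27, adjusted p = 0.000262) and 2.40 (SE 0.30, adjusted p = 2.4e-05). Per3 was higher in telogen by 0.48 (SE 0.14, adjusted p = 0.0141) in controls, with overlapping groups, and by 1.33 (SE 0.22, adjusted p = 0.000184) in dM1/2, without overlap, and the test of this difference is given with the genotypes.

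The Cry genes encode the more stable repressors of the pair. In controls Cry2 ranged over 6 telogen libraries from 2027 to 3629.8 with a median of 2643 normalized reads and over 6 anagen libraries from 835 to 1468 with a median of 1019. Telogen and anagen did not overlap in either genotype for Cry2, with differences of 1.36 (SE 0.19, adjusted p = 0.000252) in controls and 1.50 (SE 0.19, adjusted p = 3.31e-05) in dM1/2. Cry1 was higher in telogen controls, at 441 to 858 against 277 to 513 in anagen, by 0.78 (SE 0.20, adjusted p = 0.00989) with overlapping groups. In dM1/2 Cry1 was at 288 to 939.5 in telogen and 520.3 to 733 in anagen, a difference of 0.18 (SE 0.23, adjusted p = 0.504). P60 dM1/2 library 1 held the lowest of these Cry1 values, and without it the difference in dM1/2 was 0.43 (adjusted p = 0.0044).

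The Rev-erb receptors and Dbp are direct targets of the activators. Nr1d1 in controls was at 7786, 3828 and 4867 at P20, 2336, 1377 and 1261 at P24, 2551, 4238 and 1014 at P28 and 6658, 8704 and 2566 at P60. In dM1/2 it was at 8782, 2437 and 633 at P20, 1606, 1232 and 1078 at P24, 2308, 2175 and 2643 at P28 and 7081, 6417 and 10882 at P60. Stages overlapped in both genotypes, through P28 control 2 and P60 control 3 in controls and through P20 dM1/2 libraries 2 and 3. The differences of Nr1d1 were 1.49 (SE 0.39, adjusted p = 0.00926) and 1.31 (SE 0.46, adjusted p = 0.026). Nr1d2 was at 3222 to 6840.1 in telogen and 953 to 3356 in anagen controls, and stages overlapped in both genotypes. It differed by 1.45 (SE 0.27, adjusted p = 0.00159) in controls and 1.20 (SE 0.15, adjusted p = 2.13e-05) in dM1/2. Dbp in controls was at 1813, 1758 and 2312 at P20, 539, 267 and 323 at P24, 378, 1661 and 249 at P28 and 3155, 3086 and 1697 at P60. In dM1/2 Dbp was at 1971, 1315 and 383 at P20, 270.1, 235 and 275 at P24, 531, 901 and 580.1 at P28 and 2083, 2522 and 2609.9 at P60. Control stages did not overlap, with P28 control 2 close below the lowest telogen library, and in dM1/2 P20 library 3 lay among the anagen libraries. The differences of Dbp were 2.34 (SE 0.40, adjusted p = 0.000917) and 1.91 (SE 0.31, adjusted p = 0.000208).

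**Figure D2:**
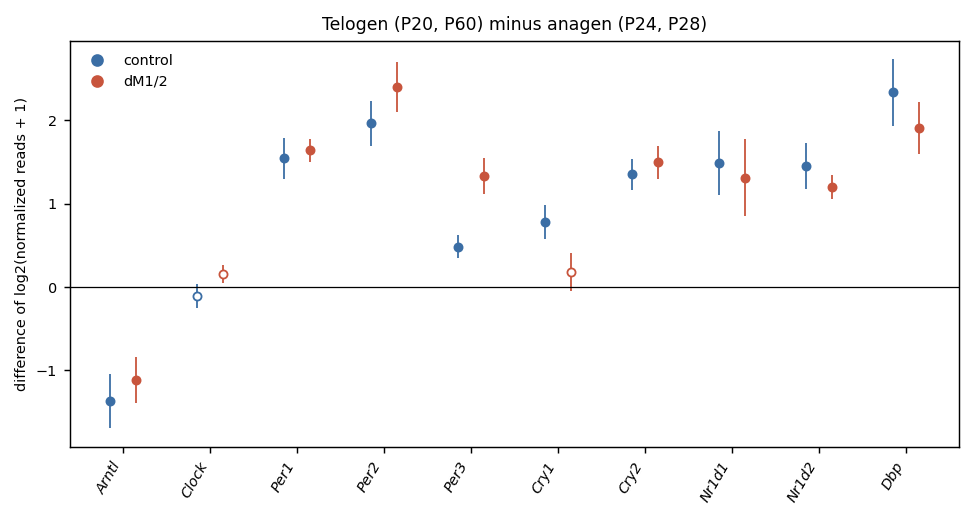
Difference of log2(normalized reads + 1) between telogen and anagen for each member, with its SE, in controls (blue) and dM1/2 (red), filled where the adjusted p was under 0.05. Arntl lies below 0 in both genotypes, Clock near 0, and the other members above 0, with Dbp highest in controls and Per2 highest in dM1/2.

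The size of these differences depended on the scaling of the libraries. When reads were instead scaled to the total of each library, the median of all genes moved to -0.43 in controls and -0.53 in dM1/2, with 54.3% and 71.9% of all genes called, and the differences of Dbp became 1.91 and 1.38, those of Per2 1.54 and 1.88 and those of Arntl -1.78 and -1.63. Per1, Per2, Cry2, Nr1d2 and Dbp stayed higher and Arntl lower in both genotypes, whereas Per3 (0.06, adjusted p = 0.756) and Cry1 (0.36, adjusted p = 0.254) no longer passed in controls, nor did Nr1d1 in dM1/2 (0.79, adjusted p = 0.127). Under that scaling Clock passed as lower in telogen, at -0.53 in controls (adjusted p = 0.0481) and -0.37 in dM1/2 (adjusted p = 0.0374), and Cry1 in dM1/2 turned to -0.34 (adjusted p = 0.267). With all 4 ages left free (F test over 12 libraries), 9 members varied in controls, Clock being the exception, against 49.0% of all genes, and 8 in dM1/2, all but Clock and Cry1, against 59.9%. In that test in controls, Cry1 (adjusted p = 0.0446) failed without 9 of the 12 libraries (up to 0.0904), which spared P20 control 2, P28 control 3 and P60 control 1, and Nr1d1 (adjusted p = 0.0381) without 7 (P20 controls 1 and 3, P24 controls 2 and 3, P28 control 1, P60 controls 1 and 2, up to 0.091). Arntl failed without P28 control 1 or P60 control 2 (up to 0.0617) in controls and without P28 dM1/2 1 (0.0532) in dM1/2. In dM1/2 Nr1d1 failed without P24 dM1/2 3 or P60 dM1/2 3 (0.0815), and Cry1 passed without P60 dM1/2 1 (0.0268). Between telogen and anagen, the same 9 members were called in controls with P28 control 2 and P28 control 3 both left out, with Dbp at 2.59 and Arntl at -1.47, and in dM1/2 Nr1d1 failed without P24 dM1/2 3, P28 dM1/2 2 or P60 dM1/2 3 (adjusted p up to 0.056).

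The ages that share a stage and a sex differed less. Between P24 and P28, limma called 0 members in controls, against 5.64% of all genes, and 0 in dM1/2, against 0.623%. DESeq2 called 0 members in controls and 1 in dM1/2, against 1882 of 14066 and 652 of 14277 genes. With edgeR 0 were called in both, against 1013 and 192 genes. At an unadjusted p under 0.05 in limma there were 0 members in controls, against 2944 of 14066 genes. In dM1/2 there were 2, against 1532 of 14277. Those 2 members were Dbp, higher at P28 in dM1/2 by 1.33 (SE 0.44, adjusted p = 0.251) with every P28 library above every P24 library, and Nr1d2, by 0.47 (SE 0.21, adjusted p = 0.432), also without overlap. Nr1d1 in dM1/2 differed by 0.88 (SE 0.66, adjusted p = 0.727), again without overlap. This SE pools all ages of dM1/2, where the SD of Nr1d1 was 1.90 at P20, 0.29 at P24 and 0.14 at P28. With only the 6 libraries compared, limma called Dbp (adjusted p = 0.0159) and Nr1d1 (adjusted p = 0.0285) in dM1/2, against 375 of 14032 genes. The same fit called 0 members in controls, against 204 of 13966 genes. In the main fit in controls, the differences of Dbp and Nr1d2 were 0.58 (SE 0.56, adjusted p = 0.627) and -0.01 (SE 0.38, adjusted p = 0.992), where the P28 libraries reached both above and below the P24 libraries. Between P60 and P20, Per3 passed in controls, higher at P60 by 0.77 (SE 0.19, adjusted p = 0.0341), 1.71-fold, without overlap, against 8.36% of all genes. In dM1/2 Nr1d2 passed, higher at P60 by 0.85 (SE 0.21, adjusted p = 0.0177), without overlap, against 15.7%. The members at an unadjusted p under 0.05 numbered 5 (Per1, Cry2, Nr1d1, Nr1d2 and Dbp), against 4429 of 14277 genes. Both calls depended on single libraries. Leaving out any of the P20 or P60 controls, or P24 control 2, took Per3 out, to adjusted p-values up to 0.11, and leaving out P20 dM1/2 3 or P60 dM1/2 2 took Nr1d2 out, up to 0.0513. With no library left out, Per3 also failed with the replicate number as a block (adjusted p = 0.0539) and with all 24 libraries in 1 fit (0.0662), and Nr1d2 with all 24 (0.0867) or only the 6 libraries compared (0.0875). Scaled to library totals, 6 members were called between P60 and P20 in controls, where the median of all genes was 0.72 and 45.8% of all genes were called, and 4 in dM1/2, against 19.0%.

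Per3 passed the test between dM1/2 and control at both anagen ages and at neither telogen age, and it was the 1 member called. At P24 Per3 was at 911, 902 and 1289 normalized reads in controls and 579, 562 and 464 in dM1/2, means of 1034 ± 221 and 535 ± 62.0 (SD, n = 3). At P28 it was at 1037, 1506 and 1047 in controls and 612, 641 and 484 in dM1/2. Every dM1/2 library lay below every control at both ages, and Per3 was 1.91-fold lower at P24, a difference of -0.94 (SE 0.17, adjusted p = 0.00835) on the log2 scale, and 2.05-fold lower at P28, a difference of -1.03 (SE 0.19, adjusted p = 0.007). In telogen the groups overlapped, at 1074, 1169 and 1279 against 987, 1786 and 1084 at P20 and at 2429, 1730.3 and 1916 against 1255, 2733 and 1123 at P60, with differences of 0.08 (SE 0.21, adjusted p = 0.848) and -0.35 (SE 0.33, adjusted p = 0.986). The effect of genotype in anagen minus that in telogen was -0.85 (SE 0.27, adjusted p = 0.0236) for Per3 over 24 libraries, and Per3 was the 1 member of 10 that passed this test, against 30.2% of all genes. The test over the 4 ages without grouping them passed for 0 members, against 24.2% of all genes. At an unadjusted p under 0.05 in limma was 1 member, Per3 (adjusted p = 0.0939), against 5269 of 14243 genes. DESeq2 called Per3 (adjusted p = 0.0369), against 4533 of 14243 genes, and edgeR none, against 3532. With each library left out in turn, Per3 passed at P24 and P28 every time, with the largest adjusted p at 0.0336 and 0.0298, and so did its difference between anagen and telogen, up to 0.0474. With P28 control 2 and P28 control 3 both left out, which leaves 1 control assumed to vary like the mutants, Per3 at P28 was at -0.85 (adjusted p = 0.0182), and Cry1 (1.04, adjusted p = 0.0108) and Nr1d2 (0.59, adjusted p = 0.0328) passed as higher.

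Of the 10 members, 1 was called at P24 and 1 at P28, below the 26.6% and 35.5% of all genes called at these ages. At P20, limma called 0 members, against 0.433% of all genes. DESeq2 and edgeR called 0 members, against 668 and 78 of 13845 genes. In limma, 2 members had an unadjusted p under 0.05, against 2735 of 13845 genes. These 2 were Per1, at 6829.8, 6057 and 6459 in controls and 5259, 5749.7 and 4378 in dM1/2 without overlap (-0.34, SE 0.13, adjusted p = 0.194), and Clock, at 1816, 1204 and 1142 and 1887, 1565 and 1986 with overlap (0.41, SE 0.18, adjusted p = 0.253). At P60, limma called 0 members, with 0 at an unadjusted p under 0.05, against 0% of all genes, of which 525 had an unadjusted p under 0.05, and DESeq2 called 26 of all genes and edgeR 0. Cry1 went the other way from Per3 in anagen. At P24 Cry1 was at 277, 458 and 418 in controls and 605, 529 and 590.1 in dM1/2, and at P28 at 299, 323 and 513 and 733, 607 and 520.3. No dM1/2 library overlapped a control at either age, yet Cry1 missed the threshold with 0.61 (SE 0.20, adjusted p = 0.058) and 0.74 (SE 0.24, adjusted p = 0.0502), whereas DESeq2 called it at both (adjusted p = 0.0358 and 0.037). Without P24 control 1 its difference at P24 was 0.39. Its difference between the anagen and telogen effects was 0.60 (SE 0.33, adjusted p = 0.184), and 0.35 without P60 dM1/2 1. Among the remaining members, the largest difference at P24 was Per2 at -0.59 (SE 0.30, adjusted p = 0.192) and at P28 again Per2 at -0.70 (SE 0.43, adjusted p = 0.246), with overlap at both ages. Per2 at P24 was at -0.91 without control 1 and -0.28 without control 3, and at P28 at -0.27 without control 2. At P20 the largest was Nr1d1 at -1.14 (SE 0.75, adjusted p = 0.415), then Dbp at -0.96 (SE 0.48, adjusted p = 0.298), and for both genes dM1/2 library 1 lay within or above the controls and library 3 far below them. Without library 3 these differences were -0.18 and -0.27, and without library 1 they were -2.08 and -1.45. At P60 Per2 differed by -0.60 (SE 0.46, adjusted p = 0.986), and by 0.0051 without dM1/2 library 1.

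**Figure D3:**
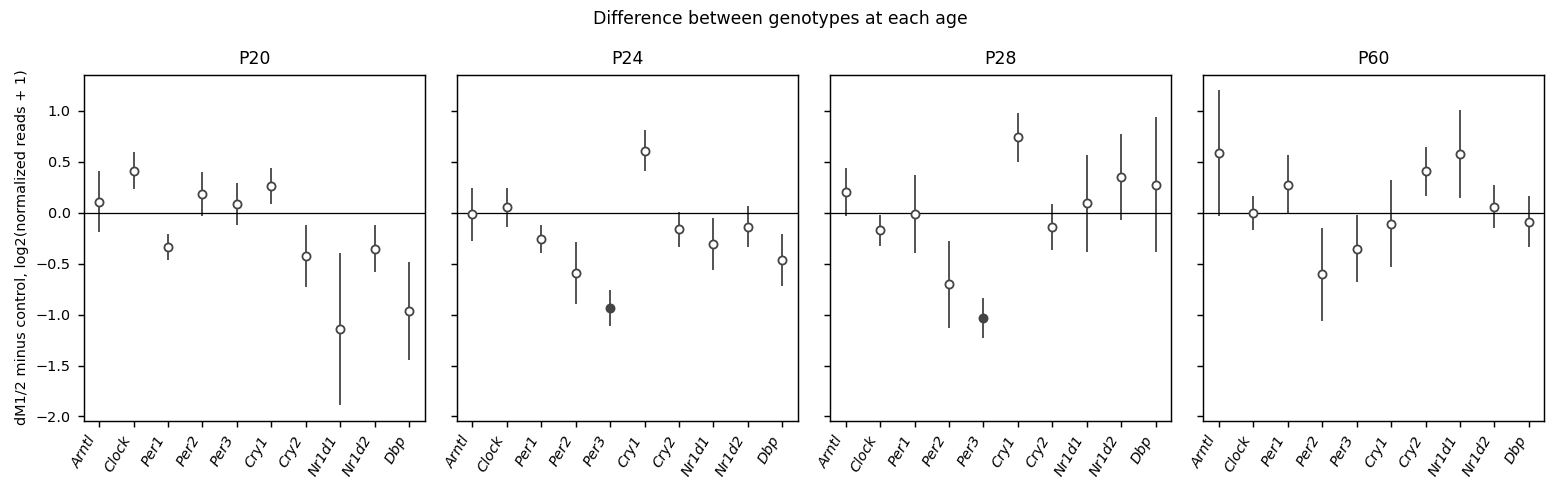
Difference of log2(normalized reads + 1) between dM1/2 and control for each member at each age, with its SE, filled where the adjusted p was under 0.05. Per3 at P24 (-0.94) and P28 (-1.03) are the filled points.

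Libraries of one group differed in their clock genes, and several of these genes did so together. The pooled SD within groups (16 degrees of freedom) was 0.89 on the log2 scale for Nr1d1, larger than that of 92.0% of the 14243 genes tested over all 24 libraries. For Dbp it was 0.74 (86.2%), for Arntl 0.60 (79.2%) and for Per2 0.59 (78.6%), and Clock was the steadiest at 0.24 (39.4%), where the median gene had 0.29. P28 control 2 deviated from the mean of its group by 1.62 for Dbp, 1.03 for Nr1d2, 0.93 for Nr1d1, 0.86 for Per2 and 0.81 for Per1, while its Arntl was at -0.49. P28 control 3 did the reverse, with Dbp at -1.11, Nr1d1 at -1.13 and Arntl at 0.29. These are also the libraries with the highest and the lowest Hdac1 of the P28 controls, and the part of either in the clock values was not tested. P20 dM1/2 3 had Nr1d1 at -1.91, Dbp at -1.38 and Arntl at 0.68, and P60 control 3 had Nr1d1 at -1.05, Dbp at -0.59 and Arntl at 1.19. In each of these 4 libraries, Arntl thus deviated in the direction opposite to Dbp and Nr1d1. The 4 were picked among libraries with large deviations, and the deviations of a group sum to 0, so this is a description. Not every library did so. In P24 control 3, Arntl (-0.24), Dbp (-0.15) and Nr1d1 (-0.34) all lay below the mean. In P60 dM1/2 2, Arntl (-0.76) and Nr1d1 (-0.30) did, with Dbp at 0.08.

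**Figure D4:**
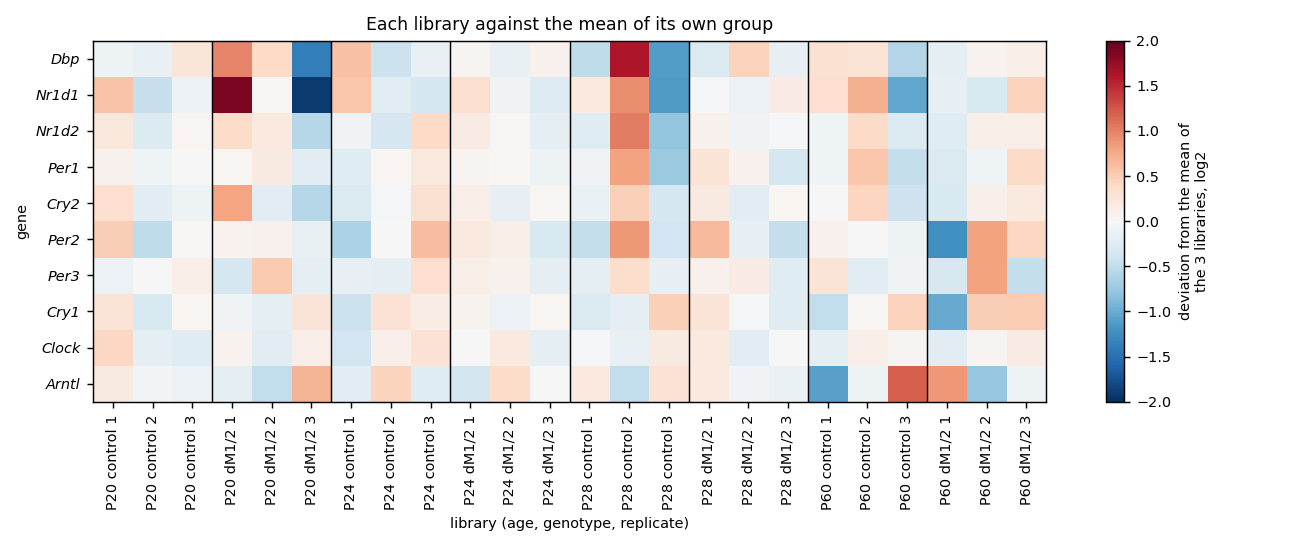
Deviation of each member (rows) from the mean of the 3 libraries of its age and genotype, on the log2 scale, for the 24 libraries (columns), red above and blue below the mean. The columns of P28 control 2, P28 control 3, P20 dM1/2 3 and P60 control 3 show Arntl with the colour opposite to Dbp and Nr1d1.

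The genes most like Dbp were sought by the correlation of these deviations over the 24 libraries, among 11975 genes averaging 50 normalized reads or more. Libraries share their total depth, quality and hour of collection across genes, so the values are a description. The 5 genes outside the members were Ciart (Pearson r = 0.89, Spearman rho = 0.90, and r = 0.83 without the 2 libraries farthest from the median), then, in the same order of values, Gpr146 (0.89, 0.79 and 0.84), Bhlhe41 (0.88, 0.79 and 0.81), Camkk1 (0.86, 0.76 and 0.74) and Por (0.85, 0.76 and 0.79). Ciart and Bhlhe41 encode repressors of the clock activators, and Por encodes the reductase that supplies electrons to cytochromes P450. Of the members, Dbp followed Nr1d2 (r = 0.82, rank 11 of all genes), Nr1d1 (0.81, rank 16), Per1 (0.64) and Cry2 (0.61), and less Per2 (0.31) and Per3 (0.28), and it ran against Arntl (-0.61), Clock (-0.43) and Cry1 (-0.33). Without the same 2 libraries, P28 control 2 and P20 dM1/2 3, these became 0.67 for Nr1d2, 0.75 for Nr1d1, 0.49 for Per1, 0.45 for Cry2, 0.12 for Per2, 0.12 for Per3, -0.56 for Arntl, -0.41 for Clock and -0.29 for Cry1. For Arntl the 5 genes were Clip3 (0.81, 0.80 and 0.81), Fam196b (0.80, 0.83 and 0.72), Pcmtd2 (0.79, 0.79 and 0.79), Myo1e (0.77, 0.73 and 0.78) and Nek7 (0.76, 0.74 and 0.69). None of the other 9 members exceeded r = 0.27, that of Clock, with Arntl, and its values with the Per genes were -0.40, -0.43 and -0.56 for Per1, Per2 and Per3.

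Of 24 other genes of the clock, telogen was above anagen for 14 and below it for 3 in controls, and above for 16 and below for 3 in dM1/2, against the 45.6% and 62.1% of all genes given above. The median difference over the 24 was 0.70 in controls and 0.70 in dM1/2. The PAR bZIP factors Tef and Hlf and their antagonist Nfil3 were higher in telogen in both genotypes, by 1.23, 1.82 and 1.62 on the log2 scale in controls and 1.56, 1.83 and 1.26 in dM1/2. Of the further repressors, Bhlhe40, Bhlhe41 and Ciart were higher, by 1.98, 1.68 and 1.71 in controls. Of the Ror receptors, which activate Arntl through the element that Rev-erb receptors repress, Rora was higher in telogen by 1.53 in controls and 2.09 in dM1/2, and Rorb was lower, with differences of -1.60 and -2.25. Among clock outputs, Wee1, a kinase that holds back mitosis, was higher in telogen by 3.29 (SE 0.45, adjusted p = 0.000251) in controls and by 1.04 (SE 0.22, adjusted p = 0.00158) in dM1/2, and Usp2, a deubiquitinase, by 2.19 (SE 0.19, adjusted p = 1.19e-05) and 0.82 (SE 0.18, adjusted p = 0.00154). Npas2, the paralog of Clock, differed by 0.14 (SE 0.46, adjusted p = 0.816) in controls and was higher in telogen dM1/2 by 1.11 (SE 0.27, adjusted p = 0.00341).

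Between genotypes, 4 of the 24 were higher and 4 lower in dM1/2 at P24, against 26.6% of all genes called, 3 were higher and 3 lower at P28, against 35.5%, and 0 passed at P20 or P60. At P24 the higher were Wee1, Timeless, Usp2 and Bhlhe40, and the lower were Tspan4, Tef, Rora and Ppp1cb. At P28 the higher were Usp2, Rorb and Timeless, and the lower were Tspan4, Cipc and Csnk1d. Wee1 at P24 was at 165, 113 and 218 in controls and 656, 448 and 628 in dM1/2, and at P28 at 114, 462 and 41.0 in controls and 591, 526 and 510.3 in dM1/2, without overlap at either age. Its difference was 1.83 (SE 0.26, adjusted p = 0.00342) at P24 and 2.05 (SE 0.78, adjusted p = 0.0812) at P28, where it did not pass. Usp2 was at 224, 233 and 269.5 in controls and 547, 440.3 and 535 in dM1/2 at P24 and at 207, 341 and 149 in controls and 623, 682 and 691 in dM1/2 at P28, with differences of 1.06 (SE 0.15, adjusted p = 0.00307) and 1.60 (SE 0.29, adjusted p = 0.00624). Timeless, which also serves DNA replication forks, was at 187, 253 and 300.1 in controls and 690.2, 536 and 548 in dM1/2 at P24, 2.42-fold higher. The effect of genotype differed between anagen and telogen for 6 of the 24, upward in anagen for Bhlhe40, Timeless, Wee1 and Usp2 and downward for Csnk1d and Tspan4, against the 30.2% of all genes given above.

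**Figure D5:**
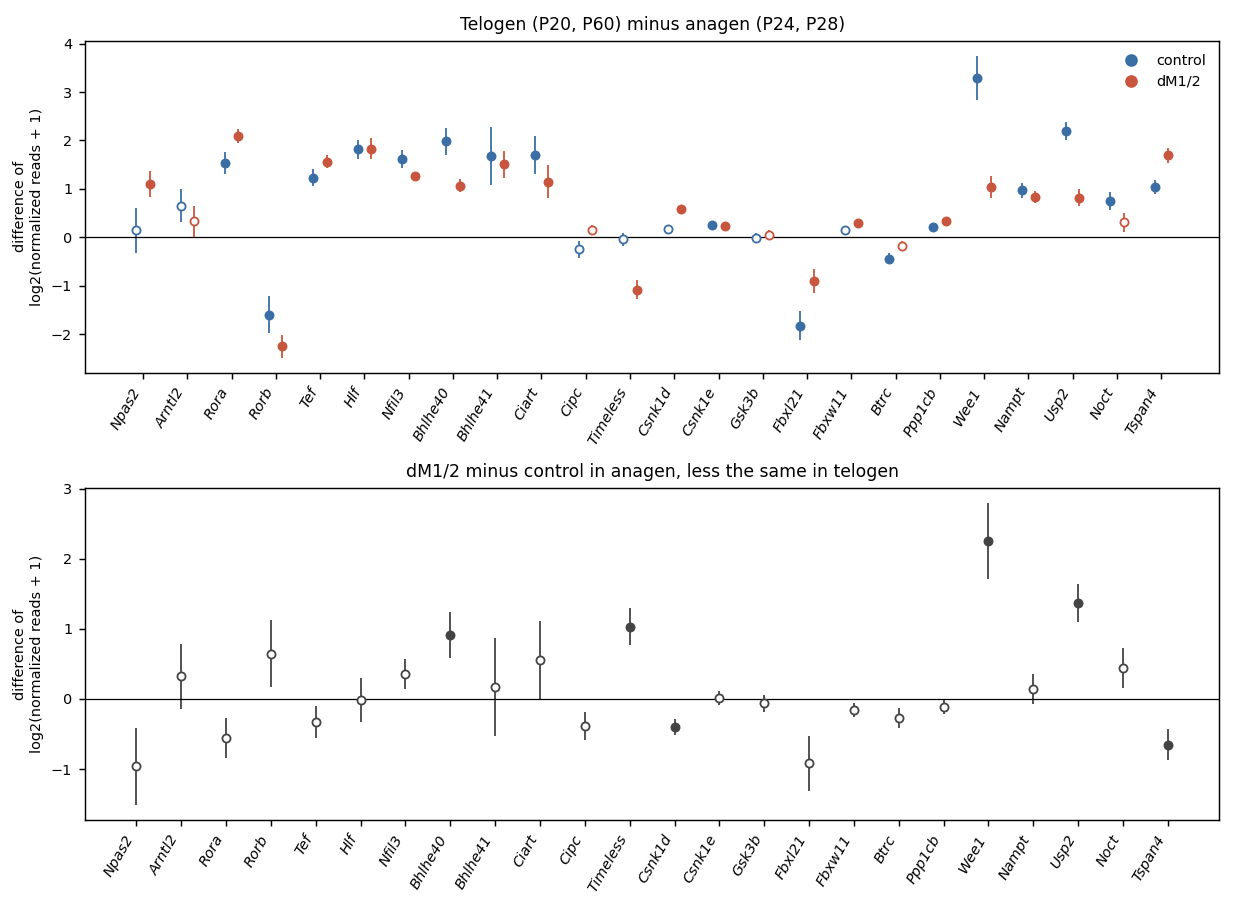
The 24 other clock genes, with the telogen minus anagen difference of log2(normalized reads + 1) in controls (blue) and dM1/2 (red) in the upper plot and the genotype effect in anagen less that in telogen in the lower plot, each with its SE and filled where the adjusted p was under 0.05. Wee1 and Usp2 show a smaller telogen excess in dM1/2 than in controls, and Timeless lies below 0 in dM1/2.

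Immediate early and heat shock genes can respond to cell dissociation. Of 11 such genes, 4 were higher in telogen in controls (Fosb, Junb, Atf3 and Nr4a1), against 45.6% of all genes called in either direction, and 10 in dM1/2, against 62.1%. Between genotypes, Fos, Egr1 and Nr4a1 were lower in dM1/2 at P24, against 26.6% of all genes, and Fos and Egr1 at P28, against 35.5%. The largest in controls were Atf3, by 2.52 (SE 0.54, adjusted p = 0.00332), at 15261 to 22734 normalized reads in telogen and 599 to 9675 in anagen, and Nr4a1, by 2.38 (SE 0.29, adjusted p = 0.000132), at 25789 to 51778 and 3028 to 10709. Per1 is induced by some of the same signals, and the part of dissociation in its values was not tested. Summed endothelial markers (738 to 6046 normalized reads in telogen and 366 to 1548 in anagen) and muscle and dermal sheath markers (3549.6 to 10057 and 1291 to 8202) overlapped between the stages, as did adipocyte markers (1782 to 14589.5 and 1282 to 13437). Medians of the endothelial sums were higher in telogen, at 1292 against 783 in controls and 1164 against 490 in dM1/2. So were those of muscle and dermal sheath, at 9077 against 5798 and 7800 against 3626. Adipocyte medians were 3479 against 5719 in controls and 4155 against 2640 in dM1/2. Single genes carried much of 2 of these sums. Of the adipocyte list, Lpl was at 1230 to 14478, while Adipoq, Plin1 and Cidec reached at most 44.1, 380 and 37.8. Of the endothelial list, Tek reached 5112 and Kdr 1016, while Pecam1, Cdh5 and Emcn reached at most 197, 207 and 14.3. The sums are thus not a measure of cells of these types, and their part in the clock values was not tested. In bulk RNA, fewer cells of a type and less RNA per cell cannot be told apart.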

How the data were processed

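RNA of sorted YFP+ DP cells was sequenced in 24 libraries (3 biological replicates for each of 4 ages and 2 genotypes). Per the study's methods, ribosomal RNA was depleted, stranded libraries were read as single ends, and the authors used Trimmomatic for trimming, TopHat 2 for alignment to mm10 and HTSeq for counts on Ensembl GRCm38.p4 genes, and DESeq2 for normalization. The size factors recovered from the values ran from 0.349 to 0.541 in telogen and from 1.56 to 2.96 in anagen, so that the 24 libraries were taken to share 1 scale. The tools are those of the submitters' processing notes, and the strand setting of the counting is not given in the sources used here. The deposited values are a normalized signal, a read count over its library's size factor. Whole reads were recovered from the steps between values for 100% of values (tolerance 0.1 read). The deposited files also hold the authors' own fold changes and p-values, which were not used.

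The main test was limma (version 3.58.1, R 4.3.3) with an intensity trend on log2(normalized reads + 1), over genes averaging 10 normalized reads or more in the fitted libraries, with Benjamini-Hochberg adjustment over all tested genes and a threshold of 0.05. Genotypes were compared in the 6 libraries of an age, ages in the 12 libraries of a genotype, and differences between effects in all 24. Alternatives were a pseudocount of 10, no filter, log2-CPM with TMM (prior count 2), edgeR 4.0.16 and DESeq2 1.42.0 on recovered reads, the replicate number as a block, other sets of libraries in the fit and each library left out. Alternatives chosen after seeing the data were the telogen against anagen contrast, leaving out P28 control 2 and P28 control 3 together, and log2-CPM of all reads without TMM. A part of the comparisons was run on simulated counts with limma, edgeR and DESeq2. These were genotype at P24, telogen against anagen in controls, the 4 ages in controls, and the anagen minus telogen effect of genotype. The other comparisons and alternatives were not run on simulated counts. P-values measure the spread between libraries, which the labels call biological replicates. The study describes sorting the skin of each mouse separately, with 3 mice per genotype and stage, and litters are not named. Depth ranged over libraries as given at the start, and precision falls with it.

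The 10 members, the lists of 24 other clock genes and 11 immediate early and heat shock genes, and the markers were chosen with earlier results of these data known. Members were named in every comparison, and other clock genes where they passed the threshold or as examples of their role. Likeness to Dbp and Arntl was the Pearson correlation of deviations of log2(normalized reads + 1) from the mean of the age and genotype group, over genes with a mean of at least 50. Gene positions were read from GENCODE vM21 and promoters from RefSeq (GRCm38.p6), both on the build of the files. Sequence letters were searched on both strands. Scripts used Python 3.11.15. Some results are not reported here.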

Additional observations from a re-analysis of the deposited data

Results flagged for a closer look

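For 7 of the 34 clock genes, against 30.2% of all genes, the effect of the Hdac1/Hdac2 deletion differed between anagen (P24 and P28) and telogen (P20 and P60) by the test of the difference itself (limma over 24 libraries). Per3 was the member among them, with a difference of -0.85 (adjusted p = 0.0236) on the log2 scale, the effect in anagen being below that in telogen. Of the other clock genes, the effect in anagen was above that in telogen for the kinase gene Wee1 by 2.26 (adjusted p = 0.00378), for Usp2 by 1.37 (adjusted p = 0.00092), for Timeless by 1.03 (adjusted p = 0.00518) and for the repressor Bhlhe40 by 0.91 (adjusted p = 0.0422). It was below that in telogen for Tspan4 with -0.65 (adjusted p = 0.0305) and for the kinase gene Csnk1d with -0.40 (adjusted p = 0.0102). Anagen libraries came from males and telogen libraries from females, so the stage of the cycle and sex cannot be told apart in these differences. The hour of collection of each group is not given, and its part in them was not tested.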

How the results depend on the processing

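The 140 results on single members gave 1080 values under settings that left out no library, of which 1026 kept their direction and side of the threshold, 18 passed only in the alternative, 8 passed only in the main test and 28 changed sign. With 1 library left out, 1564 of 1680 values kept both, 14 passed only then, 33 failed and 69 changed sign. In 0 of these values did a member past the threshold change sign. Between genotypes at P24, 2 members were called with DESeq2, against 4704 of 14028 genes. At P28, 2 were called with a pseudocount of 10 or with DESeq2 (Cry1 added), against 5083 and 5828 of 14126 genes. Between P60 and P20 in controls, 0 members were called with the replicate block, against 1026 of 14066 genes. With all 24 libraries in 1 fit it was 0, against 1788 of 14243, and with all reads and no TMM 6, against 6446 of 14066. In dM1/2 the number called was 2 with DESeq2, against 2879 of 14277 genes, and 4 with all reads and no TMM, against 2717. It was 0 with all 24 libraries or only the 6 compared, against 2176 of 14243 and 892 of 14124 genes. Between P28 and P24 in dM1/2 it was 1 with DESeq2, against 652 of 14277 genes, and 2 with only the 6 libraries, against 375 of 14032. For the genotype effect over the 4 ages it was 1 with DESeq2, against 4533 of 14243 genes. The cause was not tested. With each library left out in turn, the count of members ran from 0 to 1 at P20 (Clock without P20 control 1, against 1530 of 13831 genes). At P24 it ran from 1 to 2 (Per2 without P24 control 1, against 2772 of 14016). At P28 it ran from 1 to 3. It was 3 without P28 control 2, against 5156 of 14101, and 2 without P28 control 3, against 5788 of 14151. Between P60 and P20 in controls it ran from 0 to 1, against 168 to 1951 genes. In dM1/2 it ran from 0 to 4. It was 4 without P20 dM1/2 1, against 1517 of 14283, and 2 without P60 dM1/2 1, against 2082 of 14239. It was 0 without P20 dM1/2 3 or P60 dM1/2 2, against 1187 of 14289 and 1945 of 14224. Between P28 and P24 in dM1/2 it ran from 0 to 1 (1 without P20 dM1/2 3, against 60 of 14289). For the genotype effect over the 4 ages it ran from 0 to 1. Per3 was called without P60 dM1/2 2 or 3, against 3475 of 14221 and 3689 of 14244. With edgeR, the values that changed sign were Nr1d1 -0.11 and Dbp -0.16 between genotypes at P28, Nr1d2 0.17 between P28 and P24 in controls, Per1 0.022 between P60 and P20 in controls, Nr1d1 -0.19 for the anagen minus telogen effect of genotype. With DESeq2, the values that changed sign were Nr1d1 -0.15 and Dbp -0.21 between genotypes at P28, Nr1d2 0.17 between P28 and P24 in controls, Per1 0.010 between P60 and P20 in controls, Nr1d1 -0.22 for the anagen minus telogen effect of genotype. With both P28 control 2 and P28 control 3 left out, the values that changed sign were Per1 0.061 and Nr1d1 -0.11 between genotypes at P28, Per2 -0.33 between P28 and P24 in controls. With log2-CPM of all reads without TMM, the values that changed sign were Arntl -0.031, Clock -0.23, Per2 -0.12 and Per3 -0.063 between P28 and P24 in controls, Arntl 0.12, Per1 0.65, Cry1 0.64 and Cry2 0.67 between P60 and P20 in controls, Per1 -0.036, Per2 -0.073, Per3 -0.0020 and Cry1 -0.015 between P28 and P24 in dM1/2, Arntl 0.070 between P60 and P20 in dM1/2, Clock -0.37 and Cry1 -0.34 between telogen and anagen in dM1/2. Values of members that missed the threshold and changed sign with 1 library left out had these lowest and highest log2 differences. Between genotypes at P20, they were Arntl -0.23 to 0.35, Per2 -0.073 to 0.42 and Per3 -0.18 to 0.25. Between genotypes at P24, they were Arntl -0.20 to 0.21, Clock -0.14 to 0.20 and Nr1d2 -0.31 to 0.064. Between genotypes at P28, they were Arntl -0.040 to 0.35, Per1 -0.38 to 0.39, Cry2 -0.31 to 0.094, Nr1d1 -0.47 to 0.56, Nr1d2 -0.046 to 0.86 and Dbp -0.28 to 1.09. Between genotypes at P60, they were Clock -0.10 to 0.11, Per2 -1.0 to 0.0051, Cry1 -0.36 to 0.39, Nr1d2 -0.086 to 0.25 and Dbp -0.38 to 0.065. Between P28 and P24 in controls, they were Clock -0.16 to 0.18, Per1 -0.57 to 0.20, Per2 -0.28 to 0.46, Cry1 -0.28 to 0.11, Cry2 -0.28 to 0.13, Nr1d2 -0.53 to 0.38 and Dbp -0.23 to 1.14. Between P60 and P20 in controls, they were Per1 -0.33 to 0.18, Cry1 -0.30 to 0.18, Cry2 -0.25 to 0.17 and Nr1d1 -0.35 to 0.53. Between P28 and P24 in dM1/2, they were Per1 -0.059 to 0.26, Per2 -0.28 to 0.28, Cry1 -0.030 to 0.22 and Cry2 -0.11 to 0.087. Between P60 and P20 in dM1/2, they were Arntl -0.53 to 0.28, Per2 -0.76 to 0.24, Per3 -0.064 to 0.60 and Cry1 -0.70 to 0.061. For the anagen minus telogen effect of genotype, they were Arntl -0.55 to 0.020, Per1 -0.28 to 0.10, Cry2 -0.28 to 0.054 and Nr1d1 -0.31 to 0.64. Replicate numbers were shared between genotypes, but samples with the same number did not deviate together at every age (correlations from -0.39 to 0.30), so the replicate block was a check only. It changed 1 call of a member, Per3 between P60 and P20 in controls (0.77, adjusted p = 0.0539), and moved the number of all genes called at P20 from 60 to 439, at P24 from 3735 to 2366 and at P60 from 0 to 6. Counts over all genes varied most with the setting at P20 (23 to 668, main 60), between P28 and P24 in controls (65 to 1882, main 794) and in dM1/2 (72 to 652, main 89), between P60 and P20 in controls (921 to 6446, main 1176) and in dM1/2 (892 to 2879, main 2244), and at P60 (0 to 26, main 0). With 1 library left out, the counts over all genes ran from 0 (without P20 dM1/2 3) to 1530 (without P20 control 1) at P20, from 168 (without P20 control 2) to 1951 (without P20 control 1) between P60 and P20 in controls and from 1187 (without P20 dM1/2 3) to 2876 (without P60 dM1/2 3) in dM1/2, and from 296 (without P24 control 3) to 1075 (without P28 control 3) between P28 and P24 in controls and 9 (without P28 dM1/2 2) to 326 (without P60 dM1/2 1) in dM1/2, while at P24 they ran from 2057 to 4012, at P28 from 3043 to 5788 and at P60 from 0 to 2. P60 libraries, with the fewest reads, limit precision for Arntl, the least abundant member.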

Other observations

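Dbp and Arntl of the same library, taken as a log2 ratio of normalized reads, ran from 0.94 to 6.43 over the 12 telogen libraries and from -0.39 to 3.12 over the 12 anagen libraries. The lowest telogen value was that of P20 dM1/2 3 and the highest anagen value that of P28 control 2, and the highest of all was that of P60 control 1. Deposited labels give no hour of collection against which these ratios could be set.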
